A study of Mus musculus with 12 samples.

Results

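The comparison described here is the loss of the transcription factor Ets1 in mouse liver iNKT1 cells, which are the type 1 subset of invariant natural killer T cells. It took the 6 liver libraries of a series of 12 and all genes whose deposited value reached at least 10 in at least 3 of those 6 libraries, which left 12045 of 14004 genes. Both genotypes carried a Cre recombinase driven by Tbx21, the gene of the transcription factor T-bet, and a Rosa26-YFP reporter that Cre switches on. The 3 control libraries had no further allele (Tbx21Cre Rosa26-YFP+), and the 3 conditional knockout (cKO) libraries were homozygous for floxed Ets1 in addition (Tbx21Cre Ets1F/F Rosa26-YFP+). Cells of both genotypes were sorted as CD1d-Tetramer+ YFP+, so every cell had at some time switched on the reporter, and Ets1 was removed only after Tbx21 had been expressed. Thymic cells of the same genotypes, 3 libraries each, make up the rest of the series. The age and sex of the mice are not given in the labels, nor whether the 3 replicates of a genotype came from separate mice, so p-values measure the spread between these libraries, which may be technical.

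iNKT cells are T cells with a nearly fixed antigen receptor that recognises lipids on CD1d, and the type 1 subset is the main one in mouse liver, where it lives in the sinusoids. T-bet drives this subset, with production of interferon gamma and receptors shared with NK cells. Ets1 is a founding member of the ETS family of transcription factors, which bind DNA at a GGAA core, and it is abundant in resting lymphocytes. The title of the study asks whether Ets1 holds back T-bet and a programme like that of CD8 T cells or NK cells.

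The deposited values are read counts that the authors had normalised between libraries. Reads recovered from them numbered 27123700 to 43435732 in 4 liver libraries, but 3867319 in control library 3 and 3205395 in cKO library 2, where 1 read was worth 6.06 and 6.66 deposited units against 0.615 to 0.87 in the others. Low values of those 2 shallow libraries are therefore coarse. Across genes, log2 values correlated at 0.768 to 0.853 between control libraries, 0.802 to 0.853 between cKO libraries and 0.699 to 0.814 between genotypes. Summed values of 16 iNKT1 marker genes, all of them detected, ran from 237075 to 246951 in control and from 191494 to 254565 in cKO libraries. Single members did shift, which a sum can hide. Xcl1 and Klrk1 were lower in cKO cells by the test below, 2 of 16 beside 0.291% of all tested genes. The genotypes did not overlap in 5 markers with cKO higher and 6 with cKO lower (10.3% and 9.1% of all tested genes). Hepatocyte markers summed to 1801 to 2233 and 1385 to 2266. Both libraries numbered 1 stood apart in transcripts of plasma cells: Igkc, an antibody light chain, had 49535 in control library 1 and 12946 in cKO library 1 against 0.837 to 80.6 in the other 4, and Jchain had 11333 and 2545 against 0.887 to 25.7.

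Ets1 itself (chromosome 9, 32636221 to 32757820, plus strand, GRCm38) had values of 18773, 18528 and 15910 in the control libraries and 3594, 4425 and 5787 in the cKO libraries. The groups were far apart, and the log2 difference, cKO minus control, was -1.97 ± 0.28 (SE, n = 3 and 3, limma adjusted p = 0.00136). Exons outside the floxed stretch also contribute reads, so these values do not measure the share of cells that kept Ets1. Tbx21 had 2353, 3513 and 2321 in control and 6321, 4831 and 4267 in cKO libraries. All 3 cKO values lay above all 3 control values, but the log2 difference of 0.92 ± 0.44 did not pass the test (limma adjusted p = 0.699). Under the alternative fits given below the difference ran from 0.67 to 1.12, and Tbx21 was called in none. The limma adjusted p was 0.101 in the 6 liver libraries alone, 0.0623 there with a replicate block, and 0.924 without cKO library 2. No other member of the ETS family among 15 tested was called: Elf1, Elf4 and Fli1, the others of highest level, differed by -0.30, 0.36 and 0.03 on the log2 scale.

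Over all 12045 genes, 86 (0.714%) passed the limma test at an adjusted p under 0.05. Of these 51 (0.423%) were higher and 35 (0.291%) lower in cKO cells, and 874 genes had an unadjusted p under 0.05. Called genes of each list below are to be read beside these shares. Every list was drawn up with earlier results of these data known. Differences were large: 41 of the 51 rises were of at least 2 on the log2 scale, as were 23 of the 35 falls. In all 86 the libraries of the 2 genotypes did not overlap, which 19.4% of all tested genes showed (10.3% with cKO higher and 9.1% with cKO lower). Of the rises, 12 had no read in any control liver library, and 4 of the falls had no read in any cKO liver library. In bulk libraries, fewer cells of a type and less RNA per cell cannot be told apart.

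**Figure D1:**
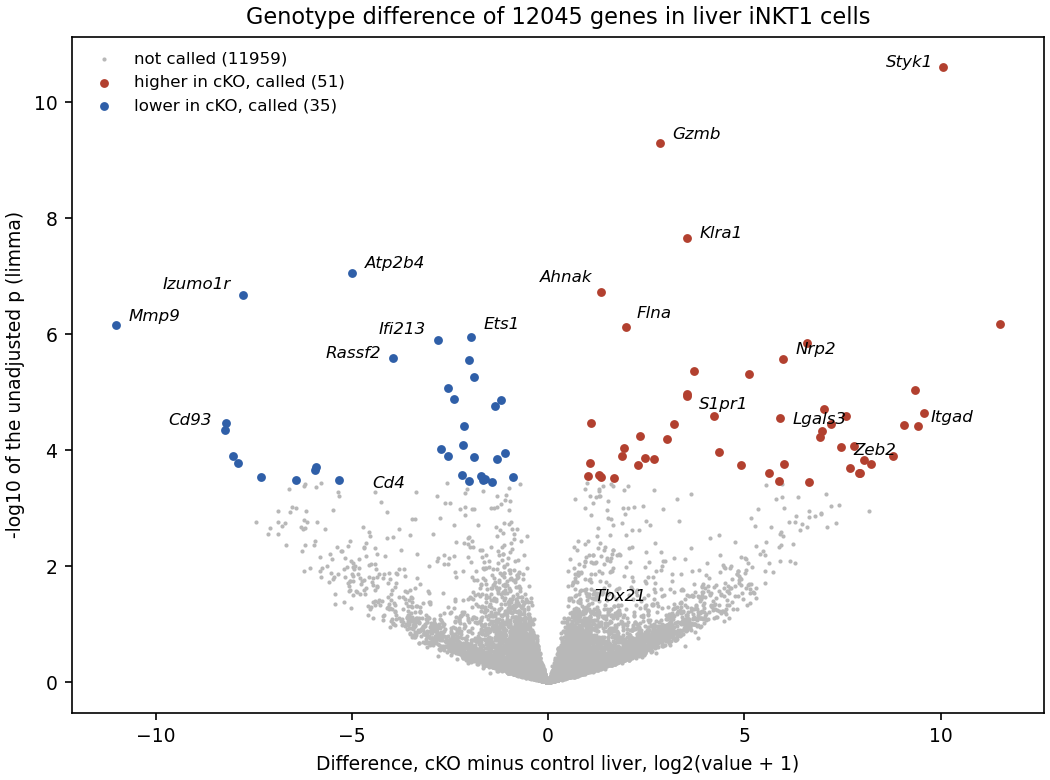
Each point is 1 of the 12045 tested genes. The x axis gives the log2 difference between cKO and control liver on log2(value + 1), and the y axis the unadjusted limma p as -log10. The 51 called rises (red) reach further from 0 than most genes, with Styk1 and Gzmb at the top, and the 35 called falls (blue) include Mmp9 at -11.00 and Ets1 at -1.97; Tbx21 lies among genes not called.

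In all, 3 regulators of transcription on a list of 20 type 1 effector factors rose, and none fell, beside 0.423% and 0.291% of all tested genes. That list was drawn up with earlier results of these data known. All 3 were also called in the 6 liver libraries alone. None was called without both shallow libraries, without both libraries numbered 1, without cKO library 3, or in edgeR on recovered reads. Zeb2, a zinc finger repressor that works with T-bet in terminal effector T cells, was almost absent from control cells, with 35.6, 107 and 6.96, and reached 8691, 4337 and 4646 in cKO cells. Every cKO library was far above the highest control library, and the log2 difference was 7.47 ± 1.49 (limma adjusted p = 0.0236). Ikzf2, which encodes the Ikaros family factor Helios, had 3273, 2816 and 1376 against 10854, 6210 and 9428, a log2 difference of 1.88 ± 0.39 (limma adjusted p = 0.0292). Tox2, an HMG-box factor of NK cell development, had no read in control cells and 63.9, 563 and 440 in cKO cells, at least 45.7-fold higher when 3 reads per control library are taken as the floor (limma adjusted p = 0.037). The list's median log2 difference was -0.13 beside 0.02 over all tested genes, and Zfp683, Id2 and Stat4, its most abundant members, differed by 0.24, -0.17 and 0.01. Eomes, the T-box relative of T-bet, stayed low in both groups, at 0 to 395 and 34.2 to 109.6.

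Receptors of the NK cell type changed in both directions. Among 30 tested NK receptors and adaptors, 3 rose and 1 fell (0.423% and 0.291% of all tested genes), and the median log2 difference was 0.03. Styk1, a membrane protein with a kinase-like domain that marks NK cells, had 0, 5.98 and 0.889 in control and 3528, 2812 and 1628 in cKO libraries. That is 7 reads in all of control liver against 8051 in cKO liver, a log2 difference of 10.06 ± 0.70 (limma adjusted p = 3.02e-07). Klra1 and Klra4 encode Ly49 receptors for MHC class I. Klra1 had 466, 461 and 274 against 5020, 3811 and 4863, a log2 difference of 3.54 ± 0.38 (limma adjusted p = 8.89e-05). Klra4 had 335, 146 and 92.0 against 2301, 1632 and 2757, a log2 difference of 3.71 ± 0.57 (limma adjusted p = 0.0032). Members of the Ly49 cluster on chromosome 6 resemble each other closely, and the sources do not state how shared reads were assigned, which leaves the values of single members uncertain. In the other direction, Klrk1, which encodes the activating receptor NKG2D, had 5394, 4640 and 2932 in control and 2387, 1054 and 843 in cKO libraries (log2 difference -1.70 ± 0.38, limma adjusted p = 0.0457). The most abundant members, Cd226, Klrb1c and Cd160, differed by 0.31, 0.16 and -0.14 and were not called. On the SLAM list, Slamf7, a self-ligand receptor of NK cells, rose from 8167, 13247 and 10357 to 21970, 20421 and 22852 (1.06 ± 0.22, limma adjusted p = 0.0332), and the 8 other tested genes were not called.

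**Figure D2:**
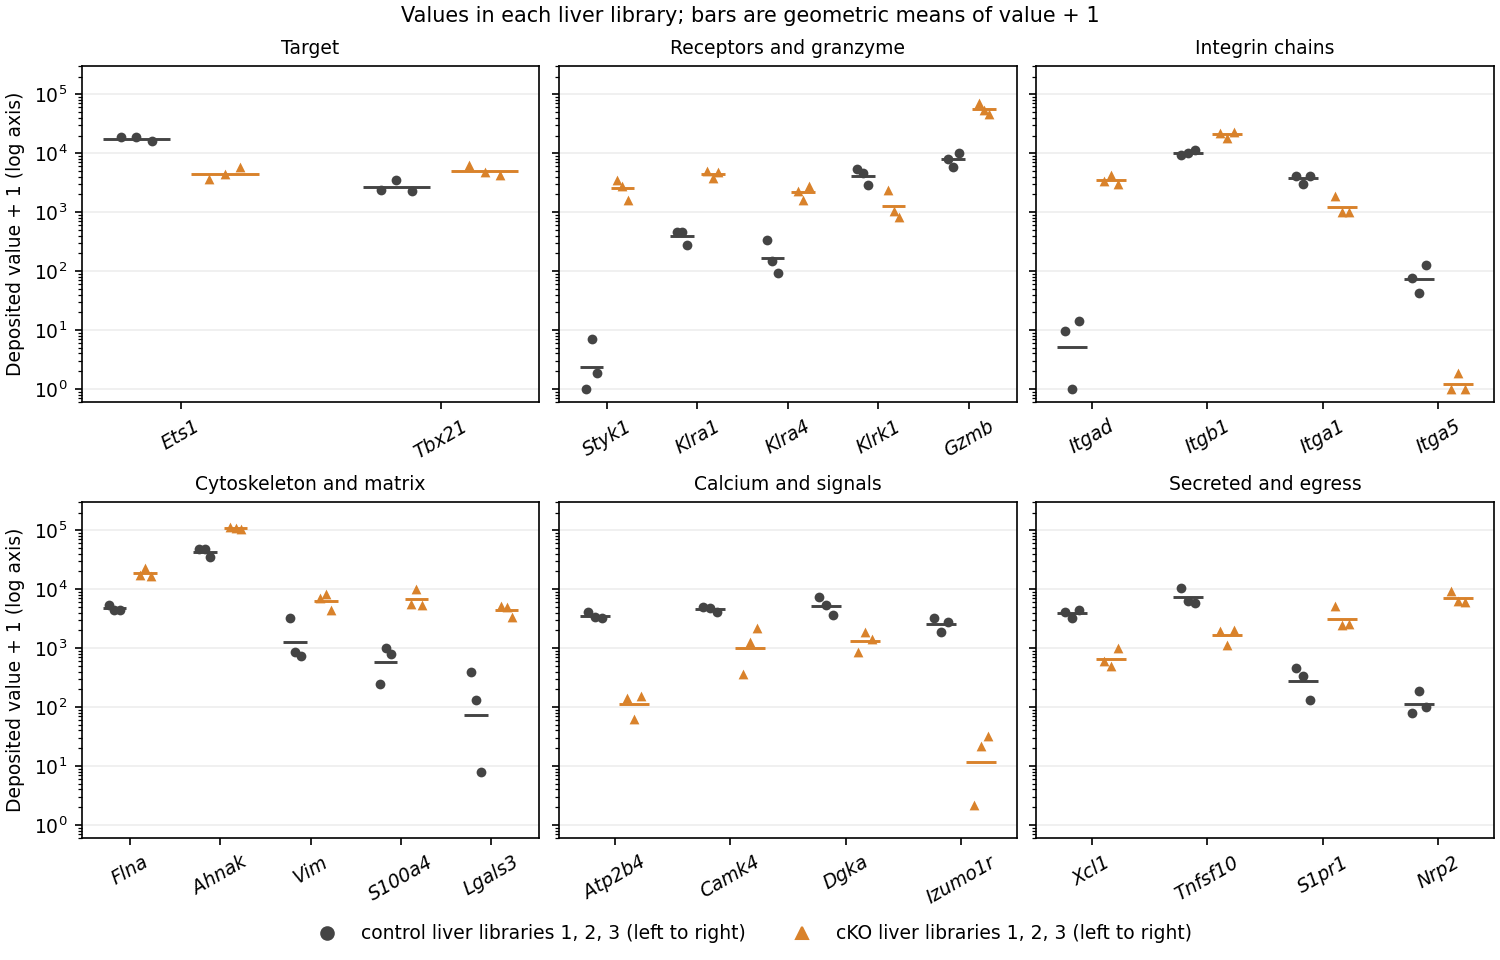
Deposited value plus 1 (log axis) of 24 genes in each liver library, with control as grey circles and cKO as orange triangles, libraries 1, 2 and 3 from left to right, and bars at the geometric mean of value plus 1. Apart from Tbx21, whose difference was not called, every gene shown was called and its genotypes do not overlap, with the widest gaps at Styk1, Itgad and Izumo1r.

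Of 19 tested genes of the cytotoxic granule and its death ligands, 1 rose and 1 fell (0.423% and 0.291% of all tested genes). Gzmb, the protease that killer lymphocytes inject into their targets, had 7927, 5937 and 10279 in control and 71896, 54843 and 46204 in cKO libraries. The lowest cKO value was several times the highest control value, and the log2 difference was 2.85 ± 0.24 (limma adjusted p = 3.01e-06). Tnfsf10, the death ligand TRAIL of liver lymphocytes, had 10296, 6372 and 5747 against 1929, 1114 and 2063 (-2.14 ± 0.39, limma adjusted p = 0.0125). The most abundant others on the list, Nkg7, Ctsd and Srgn, differed by 0.72, 0.94 and 0.36. Of 17 cytokines and chemokines, 1 fell: Xcl1, a chemokine for cross-presenting dendritic cells, had 4054, 3230 and 4420 against 592, 494 and 999 (-2.54 ± 0.41, limma adjusted p = 0.00538). Ccl5, the most abundant chemokine on the list, had 8074, 5903 and 5821 against 19394, 21105 and 13970, a log2 difference of 1.45 ± 0.45 that was not called (limma adjusted p = 0.207).

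Surface proteins of adhesion changed in both directions. Among 16 tested integrin chains 2 rose and 2 fell (0.423% and 0.291% of all tested genes), with a median log2 difference of 0.61. Itgad, the alpha D chain that pairs with beta 2, had 8.68, 0 and 13 in control and 3400, 4295 and 3066 in cKO libraries (9.43 ± 1.74, limma adjusted p = 0.0125). It lies on chromosome 7 in a row with Itgam and Itgax, the alpha M and alpha X chains, between positions 128062640 and 128223816 of the plus strand. Itgam had 109, 0.832 and 13.2 against 402, 654 and 551, and Itgax 299, 0.833 and 6.99 against 2130, 940 and 920. Neither of these neighbours was called (limma adjusted p = 0.528 and 0.198), although in each the genotypes did not overlap. Itgb1, the beta 1 chain, rose from 9354, 10150 and 11465 to 21956, 18195 and 22714 (1.02 ± 0.23, limma adjusted p = 0.0457). A pair of alpha chains that join with beta 1 moved the other way. Itga1, which forms the collagen receptor CD49a of liver-resident lymphocytes, had 4178, 3052 and 4136 against 1852, 1007 and 1019 (-1.60 ± 0.36, limma adjusted p = 0.0485). Itga5, of the fibronectin receptor, had 74.9, 42.1 and 125 in control cells and no read in cKO cells, at least 9.92-fold lower against the floor of 3 reads per library (limma adjusted p = 0.0364). Its thymus values, which enter the same estimate of the spread, reached at most 0.684. Fitted on the 6 liver libraries alone, Itga5 was not called (limma adjusted p = 0.0912). These calls depended on the fit. Under the alternatives given below Itga5 stayed called in 5 of 19, Itga1 and Itgb1 in 9 of 20 each, and Itgad in 14 of 20. The abundant chains Itgal and Itgb2, which form LFA-1, differed by -0.01 and 0.57 and were not called.

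Genes of exit from tissue and of staying in it can be set beside the integrins. Of 14 tested circulation genes 2 rose (0.423% of all tested genes), Itgb1 and S1pr1, the sphingosine phosphate receptor that guides lymphocytes into blood. S1pr1 had 464, 339 and 128 in control and 5086, 2445 and 2535 in cKO libraries (3.53 ± 0.59, limma adjusted p = 0.00639). Genotypes did not overlap in 8 of the 14, all with cKO higher (10.3% of all tested genes), and the median log2 difference was 0.87. S1pr5 and Cx3cr1, which mark circulating effector lymphocytes, were not called. S1pr5 had 5.2, 24.9 and 61.7 against 1485, 2284 and 1671 (limma adjusted p = 0.0631). Cx3cr1 had 2.59, 0.833 and 73.9 against 1190, 1277 and 1564 (limma adjusted p = 0.0787). In both, the cKO libraries were far above the control libraries, and the control libraries differed widely among themselves. Of 17 residency genes 2 fell (0.291% of all tested genes), Xcl1 and Itga1, none rose, and the median was -0.04. Cxcr6, the chemokine receptor that keeps iNKT cells in the liver, differed by -0.70 (limma adjusted p = 0.181).

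Of 20 tested genes on the list of S100 proteins, annexins and galectins, 5 rose and none fell (0.423% and 0.291% of all tested genes). Vim and Ahnak had been added to that list. The median log2 difference was 1.35, and in 13 of the 20 the genotypes did not overlap, all with cKO higher (10.3% of all tested genes). Vim and Ahnak are among the 5 rises, and the list was drawn up with earlier results of these data known. The direction of the list is therefore not independent evidence. Ahnak, a giant scaffold protein that binds annexin 2, had 47412, 47678 and 34704 against 115477, 107739 and 103939 (1.35 ± 0.17, limma adjusted p = 0.000428). Anxa2 rose by 1.94 ± 0.39 (limma adjusted p = 0.0236) and S100a4, a calcium-binding protein of motile cells, from 246, 1022 and 795 to 5553, 10233 and 5411. S100a4 thus differed by 3.53 ± 0.59 on the log2 scale (limma adjusted p = 0.00615). Lgals3, a secreted lectin, had 390, 129 and 6.97 against 5180, 4955 and 3325, with control values spread more widely than cKO values. Its log2 difference was 5.90 ± 1.06 (limma adjusted p = 0.011). Vim, an intermediate filament protein, had 3247, 848 and 728 against 7000, 8387 and 4393, with control library 1 close to the lowest cKO library (2.33 ± 0.45, limma adjusted p = 0.0174). Outside the list Flna, which crosslinks actin and ties it to integrins, had 5382, 4505 and 4495 against 17612, 22911 and 16450 (1.98 ± 0.27, limma adjusted p = 0.000994). Plec, Myo5a and Sh3bgrl3, further proteins of the cytoskeleton or its motors that were picked after their values were seen, rose by 1.36, 3.04 and 1.10.

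Several of those genes also stand on the list of terminal effector CD8 T cell genes. Of its 25 genes 9 rose (Gzmb, Zeb2, Ahnak, Itgb1, S100a4, Lgals3, Anxa2, Vim and Emp3) and 1 fell (Klrk1). Of all tested genes 0.423% rose and 0.291% fell. The median log2 difference over the 25 was 1.94, and in 18 the cKO libraries lay above all control libraries (10.3% of all tested genes). The list was drawn up with earlier results of these data known, so its direction is not independent evidence. The most abundant members not called were Cd44, S100a10 and Ly6c2, with log2 differences of -1.31, 1.27 and 0.27. Cd44, the hyaluronan receptor of activated and memory T cells, had 21026, 13276 and 14662 against 6856, 6837 and 5687 (limma adjusted p = 0.0619).

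Rises outside those lists included genes of several kinds. Nrp2, a co-receptor for semaphorins and vascular growth factors, had 77.4, 185 and 97.9 in control and 9414, 6254 and 6078 in cKO libraries (5.97 ± 0.89, limma adjusted p = 0.00227). Ptpn5, a tyrosine phosphatase best known from neurons, had 1.72, 42.0 and 128 against 2368, 2884 and 2029 (6.60 ± 0.94, limma adjusted p = 0.00141). Gas7, an actin-binding protein of cell protrusions, had 58.3, 62.6 and 25.2 against 3247, 1551 and 840 (5.13 ± 0.80, limma adjusted p = 0.00345). In these 3 genes the control libraries were low throughout and the smallest cKO value was several times the largest control value. Nhsl2 and Fry had 9 and 8 reads over the control libraries and rose by 9.33 and 7.02 on the log2 scale.

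**Figure D3:**
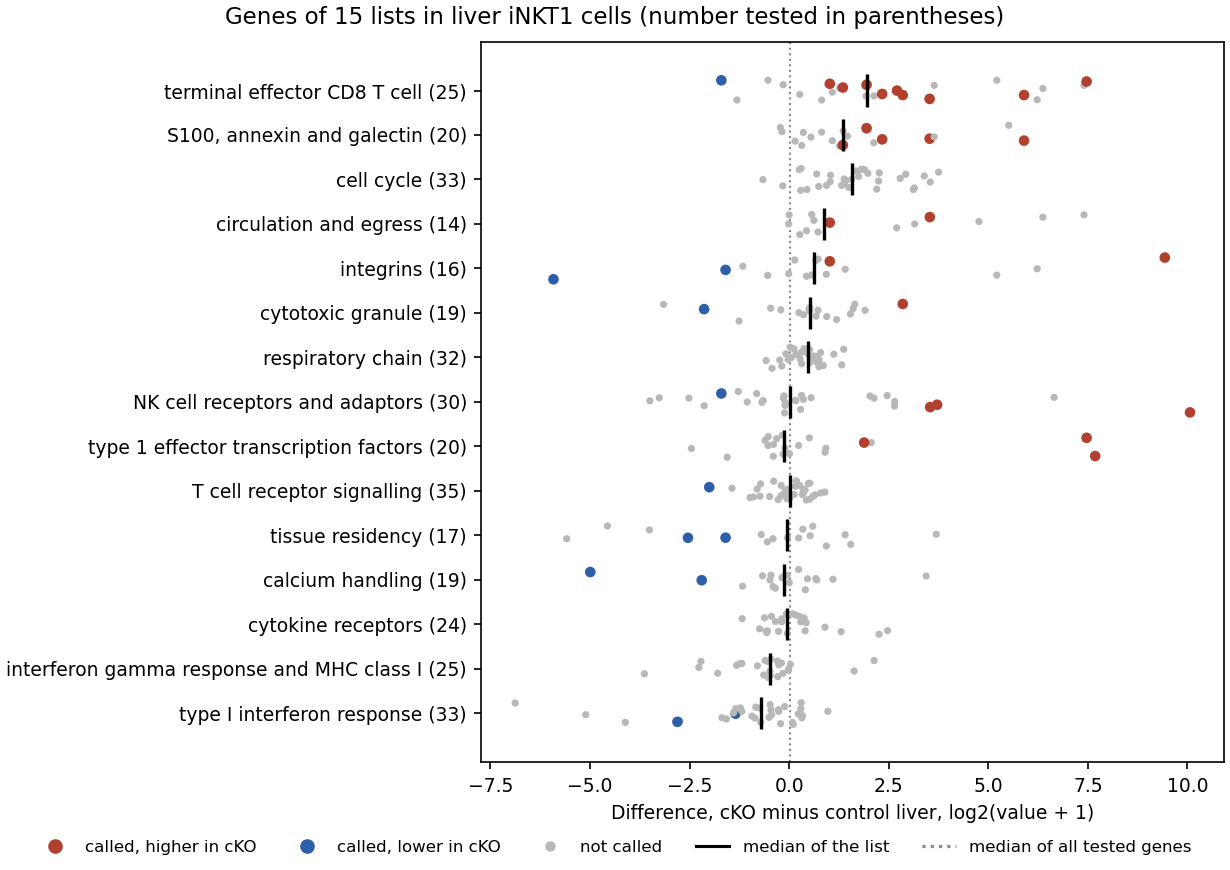
Log2 difference, cKO minus control liver, of every tested gene in 15 lists, with called rises in red, called falls in blue and genes not called in grey; black bars are list medians and the dotted line is the median of all tested genes. The terminal effector, S100 and cell cycle lists have the highest medians (1.94, 1.35 and 1.57) and the type I interferon list the lowest (-0.72). The lists share some members, and the position of a point within its row carries no value.

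The falls included 2 genes of calcium handling among 19 tested, none of which rose (0.291% and 0.423% of all tested genes). Atp2b4, the plasma membrane calcium pump PMCA4, had 4173, 3355 and 3190 in control and 141, 61.1 and 155 in cKO libraries (-4.99 ± 0.58, limma adjusted p = 0.00026). Camk4, a kinase activated by calcium and calmodulin, had 5013, 4781 and 4082 against 366, 1261 and 2192, with cKO values spread over several fold (-2.20 ± 0.49, limma adjusted p = 0.0456). Atp2b1, the other plasma membrane pump on the list, differed by 0.69 and was not called; with P2rx7 and Itpr2 it had the highest level there. Of 35 T cell receptor signalling genes 1 fell, Dgka, the kinase that removes the second messenger diacylglycerol: 7399, 5408 and 3622 against 854, 1840 and 1420 (-2.01 ± 0.46, limma adjusted p = 0.0496). The median over those 35 was 0.01. Izumo1r, which encodes folate receptor 4 of activated and regulatory T cells, was the 1 called gene among 23 costimulatory and inhibitory receptors. It had 3235, 1852 and 2736 in control and 1.16, 21.1 and 31.8 in cKO libraries (-7.77 ± 0.96, limma adjusted p = 0.000428).

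Further falls were in signalling proteins and receptors for lipids. Rassf2, an adaptor of the Hippo kinase pathway, had 9430, 6370 and 4857 against 641, 341 and 366 (-3.94 ± 0.59, limma adjusted p = 0.00227). Lpar6, a receptor for lysophosphatidic acid, had 8467, 6714 and 6274 against 1976, 1400 and 1949 (-2.02 ± 0.30, limma adjusted p = 0.00227). Gpr132, a receptor that senses lysophospholipids and acid, had 6540, 2800 and 2955 against 561, 574 and 562 (-2.74 ± 0.55, limma adjusted p = 0.0245). The cKO values of Gpr132 were nearly alike, while control library 1 was above the other 2 controls. Rapgef6, an exchange factor for the small GTPase Rap1, had 18290, 15156 and 16728 against 8054, 6484 and 7228 (-1.21 ± 0.20, limma adjusted p = 0.00691). Kbtbd11 and Rcbtb2, both with BTB domains, fell by 1.89 and 2.39 on the log2 scale.

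Ifi213, Ifi203 and Ifi208, of the interferon-inducible PYHIN family that lies in a cluster on chromosome 1, fell. Ifi213 had 3663, 3799 and 3107 in control and 558, 614 and 367 in cKO libraries (-2.81 ± 0.40, limma adjusted p = 0.00139). Ifi203 had 14988, 13442 and 13930 against 6330, 5085 and 5290 (-1.35 ± 0.23, limma adjusted p = 0.00829). Ifi208, named after its values were seen, had 4489, 4771 and 3319 against 958, 348 and 1077 (-2.54 ± 0.52, limma adjusted p = 0.0292). Their neighbour Ifi209 differed by -0.75 and was not called (limma adjusted p = 0.357); the genes resemble each other, so the split of shared reads is uncertain here as well. Ifi213 and Ifi203 were the only 2 called among 33 type I interferon response genes (falls were 0.291% of all tested genes). The median over those 33 was -0.72, and in 14 the genotypes did not overlap, all with cKO lower (9.1% of all tested genes). Among 25 interferon gamma response and MHC class I genes none was called, 3 had a positive difference (6203 of all 12045 tested genes), and the median was -0.48. Their most abundant members, B2m, H2-K1 and H2-D1, differed by -0.20, -0.53 and -0.02 and were not called.

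None of 33 tested cell cycle genes passed the test, while 31 had a positive difference and the median was 1.57. Of all 12045 tested genes 6203 had a positive difference. This list too was drawn up with earlier results of these data known, so its direction is not independent evidence. In 17 the cKO libraries lay above all control libraries, which 10.3% of all tested genes showed. Mki67, the proliferation marker Ki-67, had 7015, 3813 and 7571 in control and 11729, 11919 and 32494 in cKO libraries, with cKO library 3 far above the other 2 (1.5 ± 0.49, limma adjusted p = 0.267). Without cKO library 3 the list's median was 1.13, again with 31 positive and none called. Fitted on the 6 liver libraries alone, 5 of the 33 rose. Respiratory chain genes had a median of 0.48 over 32 tested with none called. Cytokine receptors gave none called among 24, with Il2rb, Ifngr1 and Il2rg at log2 differences of -0.55, 1.3 and -0.27.

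Some calls were of genes that mark other cell types. Cd93 and Plxnd1, both on a list of 15 endothelial markers of which 3 were tested, fell. Cd93 had 2264, 3132 and 2249 in control and 0.546, 7.72 and 42.2 in cKO libraries (-8.24 ± 1.54, limma adjusted p = 0.014). Plxnd1 had 206, 556 and 303 against no read, at least 43.6-fold lower (limma adjusted p = 0.0292). The third, Pecam1, had 671, 458 and 623 against 1.16, 88.0 and 31.0 and was not called (limma adjusted p = 0.323). The summed level of the endothelial markers was 3183 to 4154 in control and 1.71 to 98.4 in cKO libraries. That sum consists almost wholly of these 3 genes, so it repeats their values. Of the 15 markers only 5 had a row at all, and the 2 not tested were below the filter. Mmp9, a protease that neutrophils store, had 3430, 3033 and 3585 in control cells and 2 reads in all of cKO liver. The ratio of its shares of reads, control over cKO, was 4779.8 (exact 95% interval 1323 to 39475, counting error only; limma adjusted p = 0.000994). Mmp9 was the 1 gene of 13 neutrophil markers with a row in the table. Ighm, the heavy chain of IgM, had 7338, 6942 and 5257 against 1983, 1081 and 1340 (-2.18 ± 0.43, limma adjusted p = 0.0224). Control libraries 2 and 3 thus held Ighm with little Igkc or Jchain. Of 8 tested B cell and plasma cell markers Ighm alone was called, and 7 were not. The markers of that list summed to 6003 to 69676 in control and 1198 to 18136 in cKO libraries. In both groups the highest sum was that of library 1, mostly Igkc and Jchain. Macrophage markers summed to 67.0 to 1246 against 254 to 546, dendritic markers to 549 to 1805 against 1615 to 2989, and NK cell markers to 6974 to 16053 against 11995 to 17441. Erythroid and platelet markers summed to 47.6 to 281 against 199 to 675, and immature thymocyte markers to 4107 to 7083 against 6017 to 7106. Cd4, which part of iNKT cells carry, had 7921, 6440 and 6957 against 832, 234 and 1657 (-3.36 ± 0.80, limma adjusted p = 0.0572). The 6 detected markers of conventional CD8 and CD4 T cells, Cd4 among them, summed to 9608 to 13104.5 in control and 5428 to 7366 in cKO libraries, so the groups did not overlap. None of the 5 tested was called, their median log2 difference was -0.04, and 2 were positive. The part of other cells in these results was not tested.

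**Figure D4:**
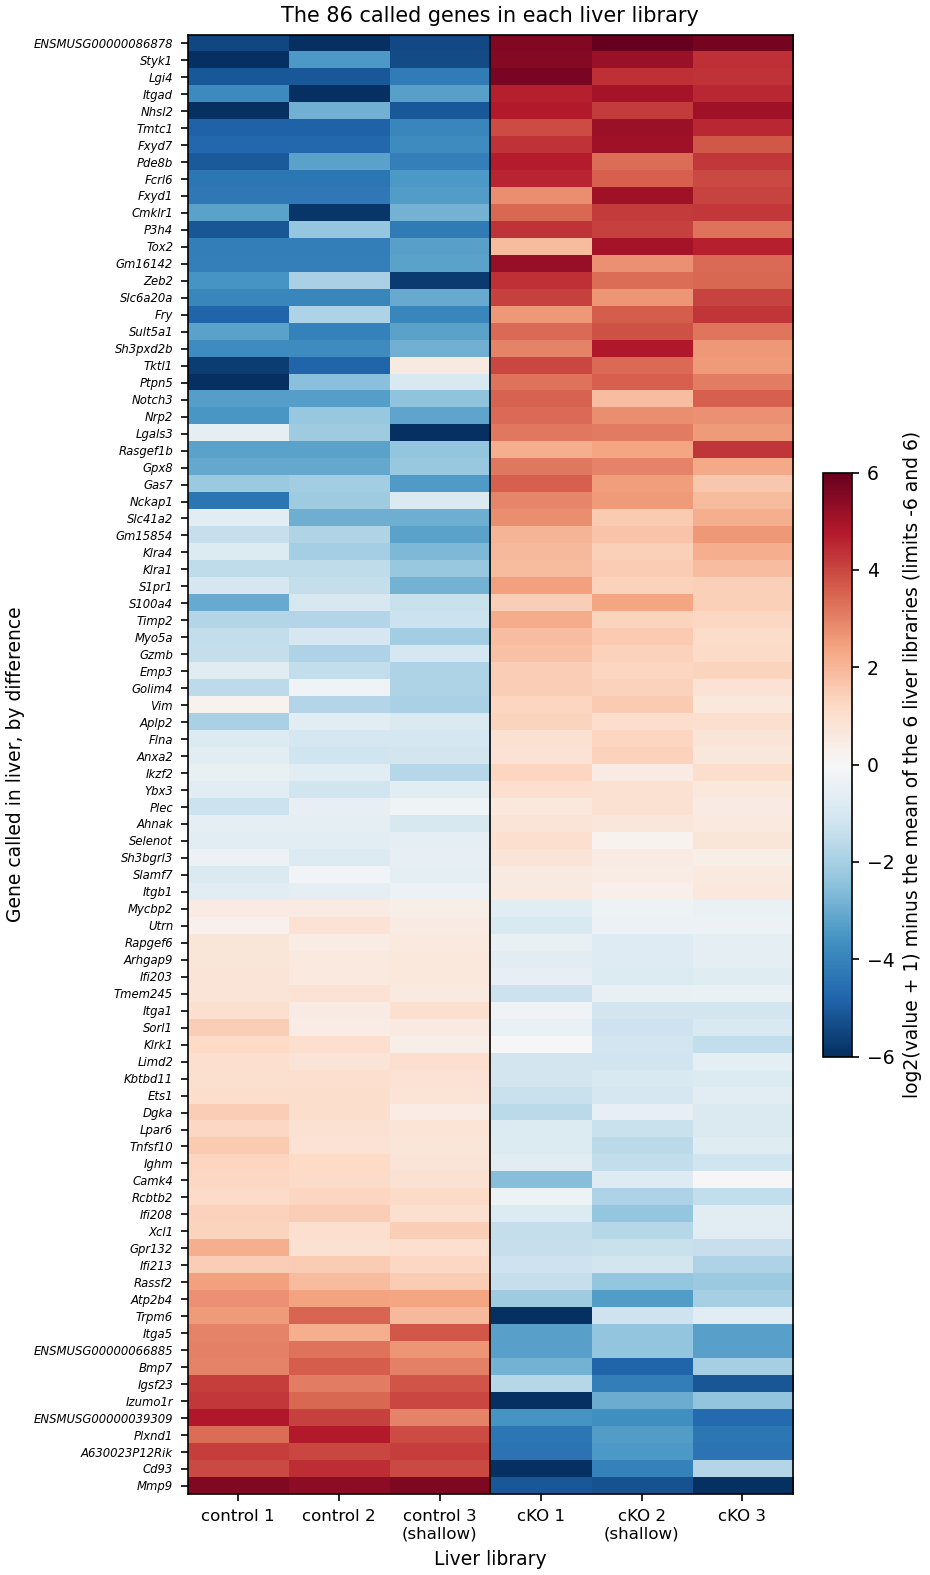
The 86 called genes in rows, ordered by difference, and the 6 liver libraries in columns. Colour is log2(value + 1) minus the mean of that gene over the 6 libraries, clipped at -6 and 6. Within each genotype the 3 libraries have the same sign for nearly all genes, including the shallow control library 3 and cKO library 2, while single exceptions such as Tktl1 in control library 3 can be seen.

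Some called genes were neighbours. Among the 83 called genes with a position, 5 pairs lay within 50 kb of each other. The 9 genes involved moved in the same direction within every pair. The pairs are not all separate, since Fxyd1 pairs with Fxyd7 and with Lgi4. The search was made after the calls were known. How many pairs of all tested genes lie this close, and how often they share a direction, was not counted. Whether these 5 pairs exceed that background was therefore not tested. The closest set was Fxyd7, Fxyd1 and Lgi4 on chromosome 7, between 31042513 and 31070935. Fxyd7 and Fxyd1, small regulators of the sodium pump, lie 210 bases apart on the minus strand, and Lgi4, a secreted protein of nerve, begins 2142 bases further on the plus strand. None of the 3 had a read in control liver, and their cKO values were 527, 892 and 338 for Fxyd7, 131, 658 and 324 for Fxyd1, and 1762, 706 and 679 for Lgi4. These are at least 75.2-fold, 47.7-fold and 135-fold higher by the same floor. The other pairs were Styk1 with Ybx3 (chromosome 6, 11257 bases apart), Tktl1 with Flna (X, 14960 bases) and, falling, Rcbtb2 with Lpar6 (14, 30051 bases). The sources do not state whether counting used the strand, so reads that run over from a neighbour cannot be told apart from its own, least of all at 210 bases.

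Promoters were searched for CCGGAA, the GGAA core that ETS factors bind together with the bases before it. GGAA without those bases was not counted. RefSeq windows on GRCm38.p6 of the 250 bases before the start were at hand for 61 of the 86 called genes and for 8649 of all tested genes, 1 window per gene. The letters CCGGAA on either strand were in 24.8% of all windows, in 6 of 37 windows of rises (16.2%) and in 2 of 24 windows of falls (8.3%). A longer ETS site, ACCGGAAGT, which contains the first, was in 1.8% of all windows and in none of the 61, as was a T-box site, AGGTGTGA, found in 0.7% of all. The called genes with CCGGAA were Aplp2, Cmklr1, Gpx8, Selenot, Tox2 and Vim among rises and Lpar6 and Rapgef6 among falls. Windows of both falls and of 2 rises are printed 5′ to 3′ along the gene. They are examples of called genes whose windows hold CCGGAA, which includes the core that ETS factors are known to bind. Capitals mark CCGGAA or its reverse complement.
Rapgef6, chr11:54522595-54522844, plus strand: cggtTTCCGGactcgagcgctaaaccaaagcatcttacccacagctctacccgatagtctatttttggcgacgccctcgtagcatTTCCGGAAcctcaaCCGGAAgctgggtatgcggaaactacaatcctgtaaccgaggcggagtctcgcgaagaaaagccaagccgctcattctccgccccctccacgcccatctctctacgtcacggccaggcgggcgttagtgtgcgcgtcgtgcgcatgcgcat
Lpar6, chr14:73237641-73237890, plus strand: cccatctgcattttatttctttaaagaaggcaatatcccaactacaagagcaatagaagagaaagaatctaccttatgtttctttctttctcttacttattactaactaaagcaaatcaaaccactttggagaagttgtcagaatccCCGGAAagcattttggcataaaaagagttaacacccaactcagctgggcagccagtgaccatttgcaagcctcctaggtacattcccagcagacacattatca
Aplp2, chr9:31211849-31212098, minus strand: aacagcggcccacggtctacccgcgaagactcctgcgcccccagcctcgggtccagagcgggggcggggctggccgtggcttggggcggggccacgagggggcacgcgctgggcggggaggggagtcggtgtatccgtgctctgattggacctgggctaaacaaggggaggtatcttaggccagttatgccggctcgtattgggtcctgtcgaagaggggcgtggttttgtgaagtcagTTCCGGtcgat
Vim, chr2:13574061-13574310, plus strand: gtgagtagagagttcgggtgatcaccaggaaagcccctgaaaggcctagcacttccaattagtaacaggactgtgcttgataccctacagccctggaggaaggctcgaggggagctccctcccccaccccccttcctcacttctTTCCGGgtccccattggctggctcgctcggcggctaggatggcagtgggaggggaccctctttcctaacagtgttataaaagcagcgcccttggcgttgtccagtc
Rapgef6 held 4 matches, a pair of which overlap on opposite strands, and the others held 1 each, beginning at -103 in Lpar6, -11 in Aplp2 and -106 in Vim, counted from the base before the start as -1. Aplp2, an amyloid precursor-like membrane protein, rose from 928, 2326 and 1921 to 9030, 7435 and 7204 (2.29 ± 0.49, limma adjusted p = 0.0343). The windows of Gzmb, Klra1 and Izumo1r did not hold these letters. A match is a description of letters in a window, and binding was not measured in these libraries.

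The same genotypes in thymus gave a comparison on other libraries. Of the 12045 genes, 84 (0.697%) were called between cKO and control thymus, and 14 were called in both tissues, which is 16.3% of the liver calls and 16.7% of the thymus calls. All 14 had the same direction: Gzmb, Nrp2, Aplp2, Ahnak and Itgad rose and Ets1, Ifi213, Ifi203, Ifi208, Lpar6, Rcbtb2, Dgka, Cd93 and the transcript A630023P12Rik fell. Of the 86 liver calls 80 (93%) had the same sign in thymus, against 58.3% of all tested genes. Both tests share 1 estimate of the spread but no library.

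The test of the difference between tissues called 1 gene of 12045 (0.0083%), Styk1, and 678 at an unadjusted p under 0.05. In thymus Styk1 had 3610, 4717 and 8600 in control and 16111, 10136 and 7747 in cKO libraries, a log2 difference of 1.04 (limma adjusted p = 0.541). The genotype difference in liver exceeded that in thymus by 9.03 ± 0.99 on the log2 scale (limma adjusted p = 0.00042). Of the 4 groups, control liver was the one in which Styk1 was nearly absent. Among the other liver calls the smallest adjusted p-values of that test, none of which passed, were those of Klra1 (difference of the differences 3.07, limma adjusted p = 0.108) and of Gzmb (1.76), Mmp9 (-11.14) and Izumo1r (-7.32), each at 0.134. Nhsl2, with a difference of 9.23, had a limma adjusted p of 0.507. Klra1 had 2849, 3519 and 2840 in control thymus, above the 274 to 466 of control liver, and 3750, 5713 and 3528 in cKO thymus.

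**Figure D5:**
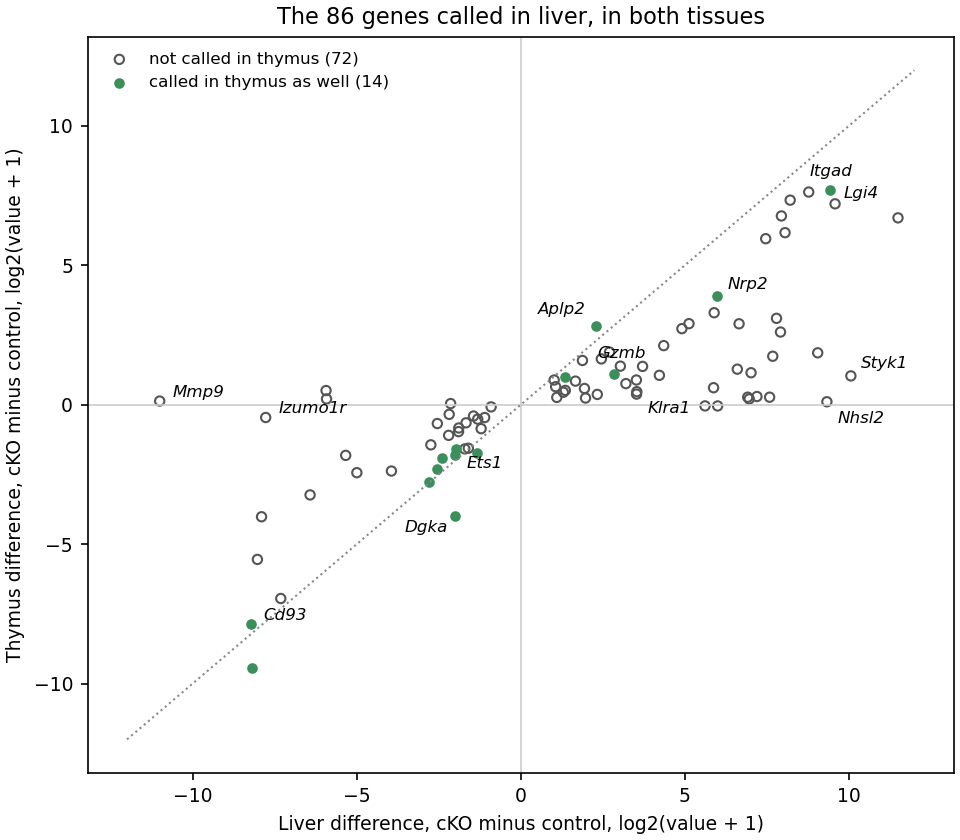
Log2 difference of the 86 liver calls in liver (x axis) and in thymus (y axis), with the 14 genes called in both as filled green circles and the dotted line at equality. The 14 lie in the lower left and upper right, while Mmp9, Izumo1r, Nhsl2 and Styk1 have large liver differences and thymus differences of 0.13, -0.46, 0.11 and 1.04.

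The number of calls rested on the libraries used. Leaving out both shallow libraries left 9 calls, 5 rises and 4 falls, and these were the same 9 genes that stayed called under each of 20 alternatives: Gzmb, Styk1, Klra1, Ahnak, Ptpn5, Atp2b4, Izumo1r, Mmp9 and Ifi213. All 86 genes kept their sign without the shallow libraries. Ets1 itself then had a log2 difference of -2.03 and missed the threshold (limma adjusted p = 0.0548). Without the 2 liver libraries numbered 1, which hold the plasma cell transcripts, 16 genes were called, 15 of them among the 86, and Ets1 had -1.76 (limma adjusted p = 0.0739). With either choice the terminal effector list kept a median of 1.83 and 2.16, with 2 and 4 of its 25 genes called as rises, and the S100, annexin and galectin list 1.56 and 1.36, with 1 and 3 of 20. The 1 was Ahnak, and the 3 were Ahnak, Vim and Lgals3. S100a4 (limma adjusted p = 0.148 and 0.109) and Anxa2 (0.365 and 0.131) were called with neither choice. The integrin list had none called with either choice, and its median, 0.61 with all libraries, was 0.19 without the shallow libraries and 0.86 without those numbered 1.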

How the data were processed

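RNA from sorted cells was purified with RNeasy mini kits and made into libraries with the Nugen Ovation Ultralow kit, per the labels' protocols. The aligners TopHat2 2.1.0 and STAR, the trimmer Trimmomatic 0.33, the counter HTSeq 0.6.1, DESeq2 and the build mm10 are named, with no role or order, per the submitters' processing notes. The authors deposited 1 table of normalised read counts, a signal that is never negative, for 14004 gene IDs in 12 libraries. Its values behave like whole reads moved to a common library size by a negative binomial quantile adjustment with a dispersion of 1.44. That is inferred from the values: undoing it gave 96.9% of values within 0.1 of a whole read (95.3% in liver). After this adjustment a library with no read can hold a value under 1.

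Names and GRCm38 positions were matched for 13363 IDs (95.4%), and 641 were not matched. Genes were kept at a value of at least 10 in at least 3 liver libraries. limma 3.58.1 in R 4.3.3 was fitted on log2(value + 1) over all 12 libraries, with 1 mean per group and a trend of variance on level. Tests were two-sided, Benjamini-Hochberg adjusted p-values were taken over all tested genes, and a call is an adjusted p under 0.05. Differences on this scale understate the change of low genes. The genotype difference was also compared between tissues. Where a group had no read, the fold was bounded with 3 reads per library. The recovered reads, rounded to whole counts, went into edgeR 4.0.16, which called 39 genes, and DESeq2 1.42.0. The fits were tested on simulated data. Other alternatives were the pseudocount, filters, scaling, a replicate block, library weights and left-out libraries.

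The genes named are Ets1, Tbx21, up to 15 rises and 15 falls of smallest adjusted p (no overlap, with the mean of the higher genotype at 50 or more, a gene symbol that is no clone or receptor segment), the called members of 39 gene lists and up to 3 others of highest mean per list, and calls of the tissue difference. Genes outside this rule were chosen after their values were seen: Aplp2, Cmklr1, Cx3cr1, Eomes, Fxyd1, Fxyd7, Gpx8, Ifi208, Ifi209, Itgam, Myo5a, Plec, Prf1, S1pr5, Selenot, Sh3bgrl3, Tktl1, Ybx3 and A630023P12Rik. The members and lists were chosen with earlier results of these data known. Intervals and bounds cover counting error only. The labels do not say whether libraries of the same number belong together, and the main test did not pair them. Deviations from the group mean correlated at 0.08, 0.081 and 0.093 between same-numbered control and cKO liver libraries. Between differently numbered ones they correlated at -0.062 to -0.014. Deviations cancel within a group, so both signs must occur.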

Additional observations from a re-analysis of the deposited data

Results flagged for a closer look

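Styk1 stood out because its genotype difference was not the same in the 2 tissues: the log2 difference, cKO minus control, was larger in liver than in thymus by 9.03 ± 0.99 (limma adjusted p = 0.00042). It had 7 reads in control liver, 8051 in cKO liver, and thymus means of 5642 in control and 11332 in cKO libraries.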

How the results depend on the processing

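The count of 86 calls (51 higher, 35 lower) moved with the samples and the model. It was 295 (160 and 135) in the 6 liver libraries alone, 412 (225 and 187) there with a replicate block, and 648 (315 and 333) with library weights. The 6 liver libraries alone kept 80 of the 86 calls. Itga5 and Gpx8, nearly absent from thymus, were among those lost (limma adjusted p = 0.0912 and 0.114). edgeR on recovered reads gave 39 (22 and 17), and DESeq2 244 (115 and 129, with 530 adjusted p-values NA). Leaving out 1 liver library gave 23 to 46 calls, 14 to 32 higher and 9 to 20 lower, the fewest without cKO library 2. Without both shallow libraries 9 remained (5 and 4). Alternatives chosen after seeing the data gave 16 (11 and 5) without both libraries numbered 1, 215 (131 and 84) without control thymus libraries 1 and 2, and 231 (132 and 99) in edgeR on the 6 liver libraries. Other pseudocounts, filters and scalings gave 70 to 115. Calls of the tissue difference numbered 2 with a pseudocount of 5, 3 in edgeR and 84 in DESeq2, and 1 otherwise. Ets1 missed the threshold without both shallow libraries (-2.03, adjusted p = 0.0548) and without both libraries numbered 1 (-1.76, 0.0739). None of the 46 named genes that were called changed sign under these alternatives; named genes that were not called, other than Tbx21, were not followed across them. For these changes the cause was not tested, beyond fewer samples where libraries were left out. The replicate block held 81 of the 86 calls. What same-numbered libraries share beyond the number is not given. Each correlated best with its own number, but weakly, and deviations from a group mean force correlations of both signs. Whether the numbers pair the libraries is therefore not settled. Low values of the 2 shallow libraries, where 1 read is worth 6.06 and 6.66 units, limit statements on rare transcripts.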

Other observations

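Prf1, which encodes perforin and was chosen after its values were seen, had 560, 535 and 497 in control liver against 76.2, 487 and 290 in cKO liver, without a call (limma adjusted p = 0.991). In thymus its log2 difference was -5.03 (limma adjusted p = 0.0354), with means of 1172 in control and 28.2 in cKO libraries. The test of the difference between tissues did not pass (3.78 ± 1.49, limma adjusted p = 0.874).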
